A study of Mus musculus with 8 samples.

Results

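The genes described here are those of the NRF2 antioxidant response that serve glutathione and thioredoxin: Nfe2l2, Keap1, Nqo1, Gclc, Gclm, Gsr, Txnrd1, Srxn1, Slc7a11 and Prdx1. They were chosen by name, as array rows whose platform annotation gives exactly 1 gene symbol, and where a gene had several such rows the brightest of them, by its mean of all arrays, was taken. Of the 10 genes, 9 had a row of their own, among 22180 genes in all. Prdx1, a peroxiredoxin that reduces peroxides with thioredoxin, lay only on 3 rows that it shares with Gm21399 (a pseudogene in RefSeq) or AV051173 as well, so its level was not analysed here.

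Hepatic macrophages were taken from male FVB/N mice, 8 weeks old, with acetaminophen liver injury, and their total RNA was hybridised to 8 Affymetrix arrays. In the rCPS1 group (4 arrays) the mice had received 50 µg of recombinant CPS1, a mitochondrial enzyme of the urea cycle, into the tail vein, and in the rTF group (4 arrays) 25 µg of recombinant transferrin, the iron carrier of plasma. All mice then received 350 mg/kg acetaminophen into the peritoneum 12 h later, so no array is from a mouse without it. No measure of liver injury was used here. The protein and its amount differ together. Each title reads Mouse1 with a replicate number, so nothing states that the 4 replicates came from separate mice, and the p-values reflect the spread of these samples alone, part or all of which may be technical.

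NRF2, encoded by Nfe2l2, is a transcription factor that KEAP1 binds and hands over for degradation. Electrophiles and oxidants modify KEAP1, NRF2 accumulates, pairs with a small Maf protein and binds antioxidant response elements in genes that make glutathione, recycle thioredoxin and supply NADPH. Acetaminophen is turned in hepatocytes into a reactive quinone imine that consumes glutathione. Because NRF2 is controlled largely through protein stability, its targets can change while its own mRNA does not.

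The 7 target genes varied widely from array to array and in nearly the same order, whichever protein had been given, and no difference between rCPS1 and rTF passed the test for any of the 9 genes. Among the 8 arrays, rCPS1 replicate 2 and rTF replicate 1 were the 2 highest for each of the 7. The 3 lowest arrays were rCPS1 replicate 4, rTF replicate 2 and rTF replicate 4, again for each of the 7. The remaining arrays, rCPS1 replicates 1 and 3 and rTF replicate 3, held ranks 3 to 5 throughout. Of the 2 regulators, Nfe2l2 did not keep this order and Keap1 kept it in part. The same 2 arrays were highest for Keap1, but rCPS1 replicate 1 was its lowest array and rTF replicate 2 held rank 3.

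Before the values, rTF replicates 1 and 2 need mention. The score of rTF replicate 2 on the first principal component of all genes was 42.6, beside -23.1 to 7.04 for the rest, and the differences of the 9 genes are also given without it. The lowest score, -23.1, was that of rTF replicate 1. The array weights of limma, lower for arrays that fit their group less well, were 0.67 for both, beside 0.94 to 1.86 for the rest. Marker genes of the labelled cells were present on every array: the 8 Kupffer cell markers, such as Clec4f, Adgre1, Csf1r and Cd68, had a mean log2 level of 9.71 to 10.4 with rCPS1 and 9.62 to 10.2 with rTF. Markers of other liver cells were also present. The 8 sinusoidal endothelial markers averaged 11.56 to 11.70 with rCPS1 and 11.49 to 11.70 with rTF, higher than the Kupffer cell list. Levels of different genes come from different probes, so these means do not give the share of each cell type. The hepatocyte list (10 of 10 measured) averaged 7.28 to 8.03 with rCPS1 and 7.60 to 8.10 with rTF, and Alb, the albumin gene, lay between 11.02 and 11.96 on all arrays. In bulk RNA, fewer cells of a type and less RNA per cell cannot be told apart.

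Nfe2l2 (probe set 17386700) varied little. Its log2 levels were 11.01, 10.81, 10.68 and 10.86 with rCPS1, against 10.92, 10.60, 10.76 and 10.81 with rTF. The groups overlapped over most of their range, with rCPS1 replicate 1 highest and rTF replicate 2 lowest. The difference, rCPS1 minus rTF, was 0.069 ± 0.12 (SE) on the log2 scale, with a 95% interval of -0.19 to 0.33 and an adjusted p of 0.981 (limma, Benjamini-Hochberg over all 22180 genes). Without rTF replicate 2 it was 0.011. The standard deviation within groups was 0.13, and only 16.5% of all genes had a smaller one.

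Keap1 (probe set 17524659), the adaptor that presents NRF2 to the CUL3 ubiquitin ligase, had log2 levels of 6.998, 7.26, 7.05 and 7.02 with rCPS1, against 7.28, 7.20, 7.20 and 7.04 with rTF. Replicates 1, 3 and 4 of rCPS1 lay close to rTF replicate 4, the lowest rTF array, and rCPS1 replicate 2 lay among the higher rTF arrays. The difference was -0.098 ± 0.11 (SE; adjusted p = 0.980, limma), and -0.090 without rTF replicate 2. A dimmer row for Keap1 (probe set 17515128), at 3.64 to 4.31 with rCPS1 and 3.49 to 4.05 with rTF, gave a difference of the opposite sign, 0.30, so the rows disagree on the direction.

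To set the sequence beside these values, the promoter windows of RefSeq (GRCm38.p6, 250 bases before to 50 after each start site) were searched for the core of the antioxidant response element, TGACNNNGC, on both strands. A window was found for 8 of the 10 genes, and 5 of them (Nfe2l2, Gclm, Txnrd1, Srxn1 and Prdx1) held the core in a window, against 13.99% of all 27025 genes with a window. The 5 matches are shown because they are the only ones in these windows. Capitals mark the 9 bases of the core, and 10 bases stand on each side, read along the gene's strand.
Nfe2l2: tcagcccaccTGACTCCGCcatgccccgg
Gclm: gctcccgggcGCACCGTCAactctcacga
Txnrd1: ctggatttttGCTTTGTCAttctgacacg
Srxn1: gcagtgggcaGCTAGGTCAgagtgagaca
Prdx1: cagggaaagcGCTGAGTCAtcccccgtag
In Nfe2l2 the core runs with the gene at -240 to -232 from the start site, on the minus strand at chr2:75704885-75704913 for the fragment. In the other 4 it runs on the opposite strand and reads GCNNNGTCA: at -134 to -126 in Gclm (chr3:122245413-122245441), at -92 to -84 in 1 of 3 Txnrd1 windows (chr10:82859104-82859132), at 29 to 37 in Srxn1 (chr2:152105542-152105570) and at -133 to -125 in Prdx1 (chr4:116685456-116685484), all on the plus strand. The Prdx1 match also holds TGACTCA, the AP-1 site, which overlaps the core. The windows of Nqo1, Keap1 and Slc7a11 held no match, which says only that these letters are not there, and a match is a description and not a measured binding site. Gclm, Txnrd1 and Srxn1, which hold the core here, and Nqo1 and Slc7a11, which do not, followed the same order of arrays.

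Gclc and Gclm encode the catalytic and the modifier subunit of glutamate-cysteine ligase, which carries out the limiting step of glutathione synthesis. Gclc (probe set 17519579) had log2 levels of 9.12, 9.93, 9.46 and 8.77 with rCPS1, against 9.79, 8.49, 9.33 and 8.83 with rTF. Gclm (probe set 17402283) had 9.63, 10.31, 9.77 and 9.24 with rCPS1, against 10.21, 8.76, 9.64 and 9.04 with rTF. For both subunits rCPS1 replicate 2 was highest and rTF replicate 2 lowest of the 8 arrays. Between those 2 arrays Gclm differed 2.93-fold and Gclc 2.70-fold. The group differences were small beside that: 0.21 ± 0.31 (SE) for Gclc and 0.33 ± 0.32 (SE) for Gclm on the log2 scale. Neither passed, with adjusted p-values of 0.981 and 0.980 (limma). For Gclm the 95% interval ran from -0.38 to 1.03 and covered changes between 0.768-fold and 2.05-fold. Single rTF arrays moved both values: without rTF replicate 2 the differences were 0.0036 for Gclc and 0.11 for Gclm, and without rTF replicate 1 they were 0.44 and 0.59.

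Slc7a11, the light chain of the cystine importer xCT that brings in the cysteine for glutathione, had the widest spread of the 9 genes. Its log2 levels (probe set 17405082) were 9.03, 10.43, 9.75 and 8.54 with rCPS1, against 10.44, 8.74, 9.64 and 8.96 with rTF. The highest and lowest arrays, rTF replicate 1 and rCPS1 replicate 4, stood 3.75-fold apart, and each group held a high array and a low one. The difference between groups was -0.0096 ± 0.45 (SE; adjusted p = 0.999, limma), with a 95% interval from 0.498-fold to 1.98-fold. Without rTF replicate 2 it was -0.24, and without rTF replicate 1 it was 0.32. Its standard deviation within groups, 0.80, was larger than that of 99.5% of all genes. The other Slc7a11 row (probe set 17397421) was dim, at 2.22 to 2.72 with rCPS1 and 1.84 to 2.93 with rTF, and differed by 0.25.

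Gsr, glutathione reductase, which returns oxidised glutathione to its reduced form with NADPH, kept the same order in a narrower range. Its log2 levels (probe set 17500478) were 9.76, 10.19, 10.01 and 9.60 with rCPS1, against 10.21, 9.39, 9.91 and 9.63 with rTF. The rTF arrays held both the highest and the lowest value. The difference was 0.11 ± 0.19 (SE; adjusted p = 0.982, limma), -0.027 without rTF replicate 2 and 0.25 without rTF replicate 1.

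Txnrd1 encodes the cytosolic thioredoxin reductase, a selenoprotein that keeps thioredoxin reduced. Its log2 levels (probe set 17235915) were 10.91, 11.28, 11.20 and 10.77 with rCPS1, against 11.36, 9.999, 10.97 and 10.75 with rTF. The value in rTF replicate 2 lay 0.75 below the next lowest array, whereas the 4 rCPS1 arrays fell within 0.52. The difference was 0.27 ± 0.26 (SE; adjusted p = 0.980, limma), 0.014 without rTF replicate 2 and 0.47 without rTF replicate 1.

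Srxn1, sulfiredoxin, repairs peroxiredoxins whose active cysteine has been over-oxidised. Its log2 levels (probe set 17377666) were 7.52, 8.27, 7.33 and 6.97 with rCPS1, against 8.36, 6.78, 7.57 and 6.97 with rTF. The span from rTF replicate 1 to rTF replicate 2, 2.997-fold, lay within the transferrin group. The difference between groups was 0.10 ± 0.36 (SE; adjusted p = 0.988, limma), and the within-group standard deviation of 0.64 exceeded that of 98.4% of all genes. Without rTF replicate 2 the difference was -0.11, and without rTF replicate 1 it was 0.42.

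Nqo1, a quinone reductase widely used as a readout of NRF2, had the largest difference of the 9 genes with all 8 arrays and equal weights, just ahead of Gclm. Its log2 levels (probe set 17512732) were 6.96, 7.43, 6.61 and 6.60 with rCPS1, against 7.02, 6.06, 6.85 and 6.29 with rTF. All 4 rCPS1 arrays lay above the 2 lowest rTF arrays and only rCPS1 replicate 2 lay above the highest, so the groups overlapped. The difference was 0.35 ± 0.25 (SE), a ratio of 1.27 with a 95% interval from 0.864 to 1.88, and it did not pass (adjusted p = 0.980, limma; unadjusted p = 0.194). It was 0.18 without rTF replicate 2 and 0.51 without rTF replicate 1, where Gclm, at 0.59, was larger. Of all genes, 7.77% had a larger difference in either direction.

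**Figure D1:**
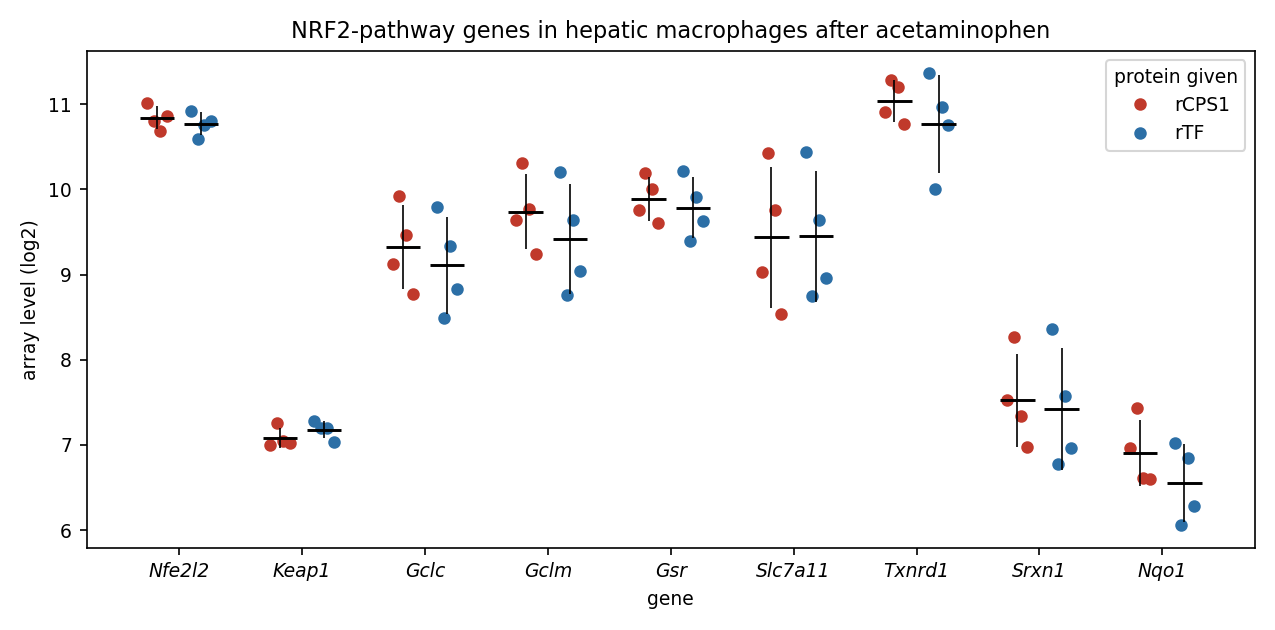
Array level (log2) of the 9 genes on each array, with rCPS1 in red left of rTF in blue; the horizontal bar is the mean and the vertical line the SD (n = 4 each). Every gene overlaps between groups, and the points of Slc7a11, Srxn1, Gclm and Gclc spread far more than those of Nfe2l2 and Keap1. Heights of different genes are not comparable, since they come from different probes.

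As a group, 0 of the 9 genes had an adjusted p under 0.05, where 0% of all genes did, and 0 had an unadjusted p under 0.05, where 4.67% of all genes did. None of the 9 had groups without overlap, against 2.92% of all genes. The rCPS1 mean was the higher one for 7 of the 9, against 45.6% of all genes. The median of the 9 differences was 0.11, and that of all genes was -0.018. Single arrays moved this median: it was 0.0036 without rTF replicate 2, with 5 of 9 higher, and 0.42 without rTF replicate 1. The size of the differences was 0.012 to 0.88 times the standard deviation within groups.

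**Figure D2:**
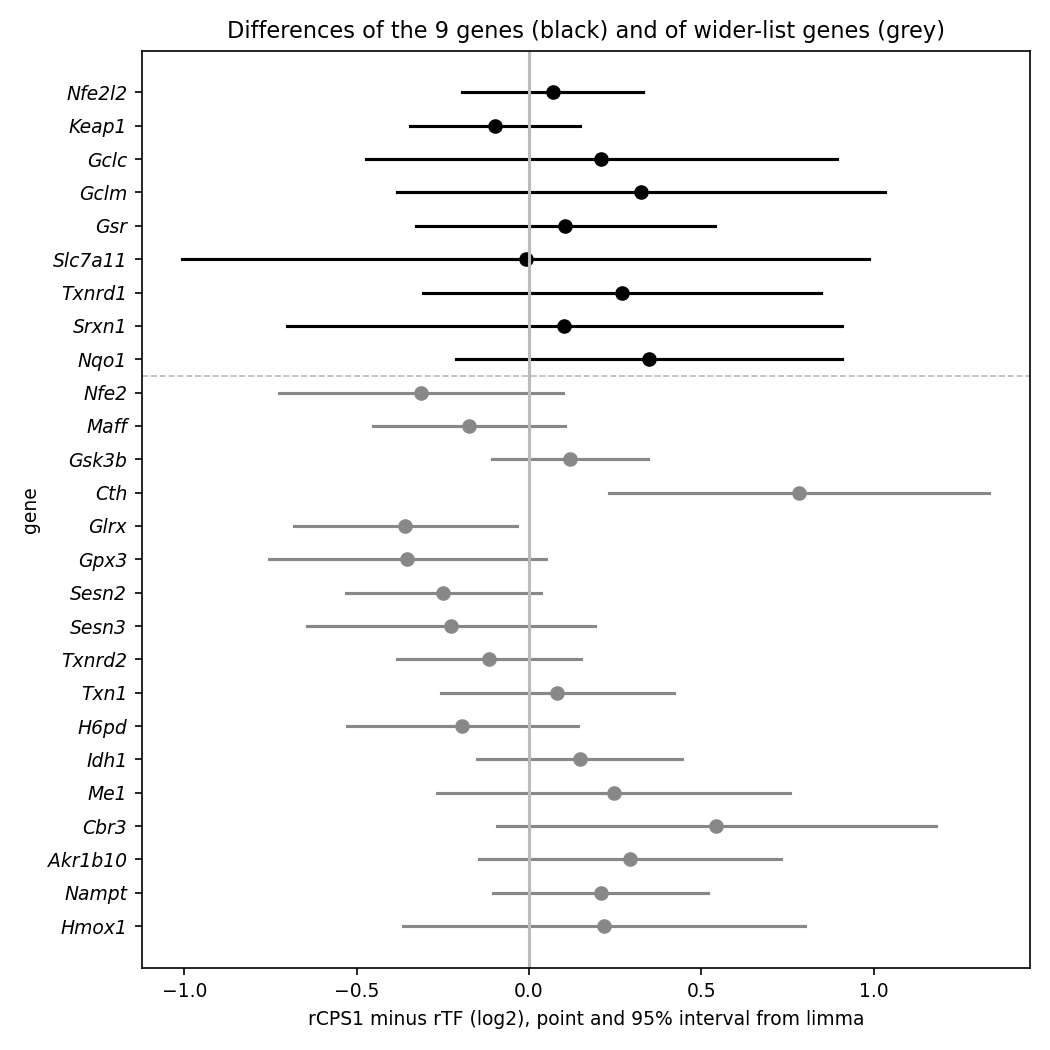
Difference rCPS1 minus rTF (log2) with its 95% interval from limma, for the 9 genes in black and for the wider-list genes named in the text in grey. All 9 black intervals cross 0, and of the grey ones only those of Cth and Glrx do not, both before adjustment over all genes.

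The shared order was quantified as a description over the 8 arrays, without p-values, because the genes were chosen as a pathway. Among the 21 pairs of target genes, Pearson's r ran from 0.74 to 0.99 with a median of 0.92, and Spearman's rho from 0.81 to 0.98. With rTF replicate 2 and rCPS1 replicate 2 left out, the arrays farthest from the median of the 9-gene mean, r ran from 0.54 to 0.996 with a median of 0.90. The other high array, rTF replicate 1, stayed in, with a 9-gene mean of 9.51 beside 9.54 for rCPS1 replicate 2. No r was computed without it. With each group's mean taken off first, r ran from 0.78 to 0.99, so the order is also that within groups. Nfe2l2 correlated with the targets at r = 0.12 to 0.56, and at -0.14 to 0.52 without those 2 arrays. Keap1 gave 0.17 to 0.69, and 0.54 to 0.84 without them. After the group means were taken off, Nfe2l2 gave 0.13 to 0.51 and Keap1 0.38 to 0.77. The closest genes were Gclc and Gclm: against the mean of the other 8 genes each, r was 0.99. The mean log2 level of the 7 targets was 8.99, 9.69, 9.16 and 8.64 with rCPS1, against 9.63, 8.32, 9.13 and 8.64 with rTF.

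**Figure D3:**
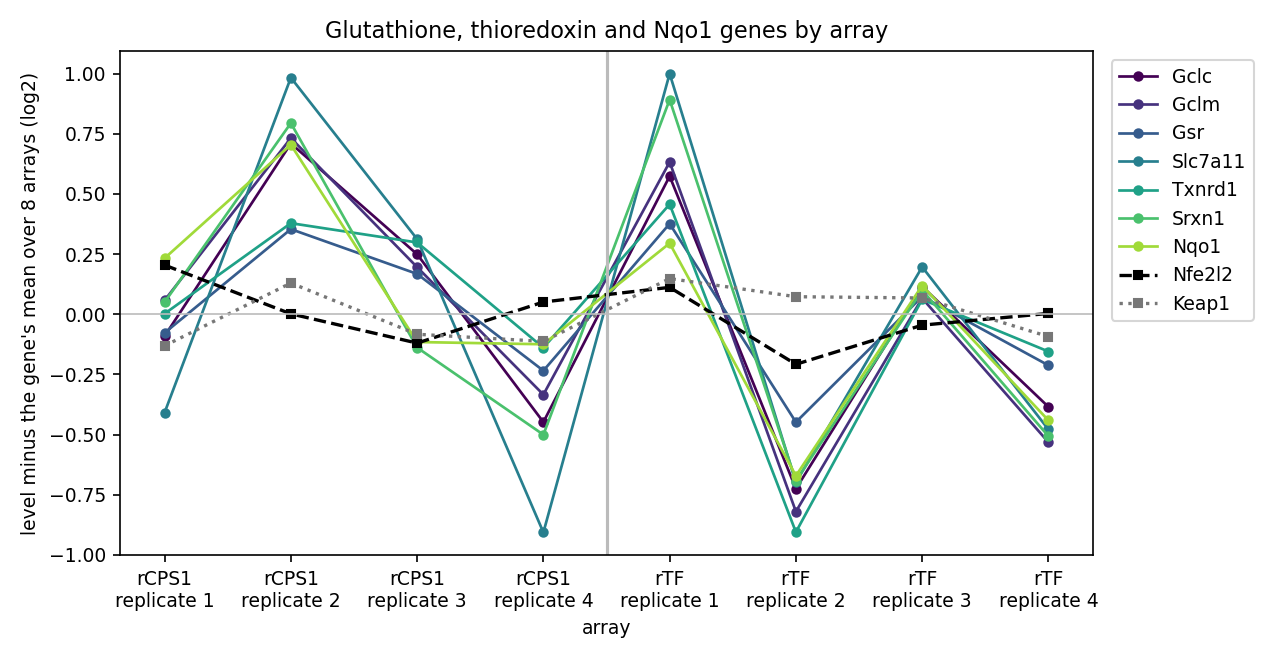
Level of each gene on each array minus that gene's mean over the 8 arrays (log2), with rCPS1 arrays left of the grey line and rTF arrays right of it; lines join the points of a gene as a guide only, since replicates have no order. The 7 targets are high together in rCPS1 replicate 2 and rTF replicate 1 and low together in rTF replicate 2, while Nfe2l2 and Keap1 (dashed and dotted) stay within 0.21 of their means.

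The genes whose levels were most like the mean of the 9, out of 22171 others, began with Hmox1. Hmox1, heme oxygenase 1, degrades heme and is itself an NRF2 target. Its log2 levels (probe set 17502573) were 11.47, 11.94, 11.48 and 11.17 with rCPS1, against 11.92, 10.69, 11.55 and 11.03 with rTF, and r with the 9-gene mean was 0.99 (rho 0.98, and r 0.98 without the 2 arrays farthest from the median). Like the targets, it overlapped between groups and differed by 0.22 ± 0.26 (SE; adjusted p = 0.980, limma), or by 0.015 without rTF replicate 2.

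Spic, a transcription factor that heme induces in macrophages that clear red cells, came next with r = 0.97. Its log2 levels were 10.07, 10.61, 10.14 and 9.94 with rCPS1, against 10.80, 9.49, 10.04 and 9.75 with rTF. Gss, glutathione synthetase, which completes glutathione after the ligase, followed with r = 0.97, at 5.87, 6.22, 5.77 and 5.44 with rCPS1, against 6.10, 5.29, 5.72 and 5.59 with rTF. The top 6 also held Clec4n, the gene of the fungal receptor Dectin-2, and Ptgir, the prostacyclin receptor gene, with r = 0.96 each. Dnajb14, a co-chaperone gene, had r = 0.96 as well but spanned only 6.60 to 6.85 with rCPS1 and 6.49 to 6.85 with rTF. Without the 2 farthest arrays, r for these 6 ran from 0.92 (Dnajb14 and Gss) to 0.98 (Hmox1). None of the 6 differed between groups beyond its error, the largest difference being that of Hmox1.

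**Figure D4:**
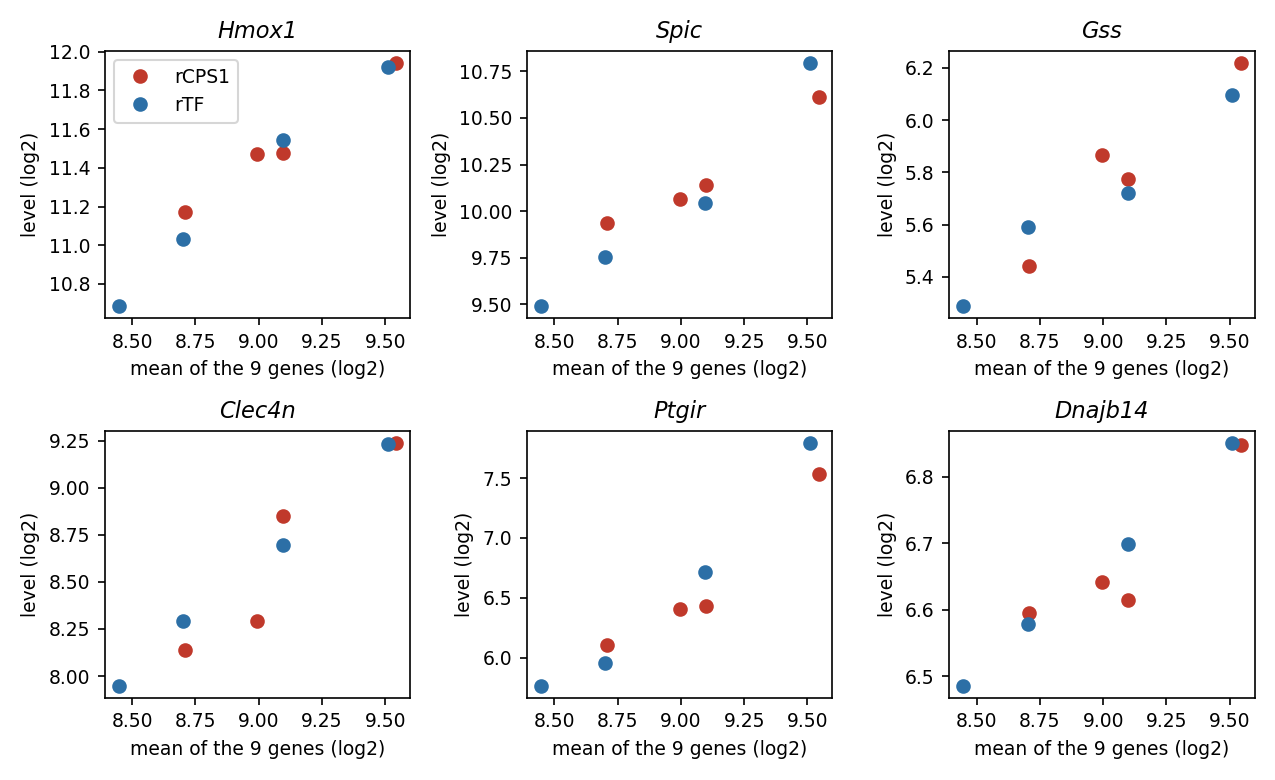
Level (log2) of the 6 genes most like the 9-gene mean, against that mean (log2), 1 point per array, with rCPS1 in red and rTF in blue. Red and blue points lie along the same line in each panel, from rTF replicate 2 at the lower left to rCPS1 replicate 2 and rTF replicate 1 at the upper right.

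Wider lists of the pathway held 103 genes, of which 93 were measured on a row of their own. None passed in either direction (0 of 93 with limma at an adjusted p of 0.05). At an unadjusted p under 0.05 there were 1 higher and 1 lower, 2.15% of the 93 against 4.67% of all genes. The rCPS1 mean was the higher one for 55 of the 93 (59.1%), against 45.6% of all genes. Their median difference was 0.020, beside -0.018 for all genes.

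Among 27 further genes of glutathione synthesis, use and export, 17 were higher and 10 lower, with a median difference of 0.058. Cth, cystathionine gamma-lyase, the last step in making cysteine from methionine (probe set 17411420), had log2 levels of 6.09, 5.38, 6.12 and 5.38 with rCPS1, against 4.97, 5.33, 4.37 and 5.18 with rTF. It was the only gene of the wider lists whose groups did not overlap, 1.08% of the 93 against 2.92% of all genes, and the gap between rCPS1 replicate 4 at 5.38 and rTF replicate 2 at 5.33 was narrow. The difference was 0.78 ± 0.25 (SE; unadjusted p = 0.0101, adjusted p = 0.980, limma). Its levels did not follow the targets (r = -0.094). Glrx (probe set 17288716), glutaredoxin, which removes glutathione from proteins, had 9.34, 9.25, 8.9998 and 8.82 with rCPS1, against 9.64, 9.41, 9.54 and 9.25 with rTF. That is a difference of -0.36 ± 0.14 (SE; unadjusted p = 0.0331, adjusted p = 0.980, limma). Gpx3, the secreted glutathione peroxidase, differed by -0.35 ± 0.18 (SE). Abcc1, an exporter of glutathione conjugates, followed the 9-gene mean with r = 0.94. The glutathione list as a whole did not: its median r was 0.011, from -0.65 (Gpx4) to 0.97 (Gss). Only Gss and Abcc1 had r over 0.7, 2 of the 27 (7.41%), against 3.87% of all genes outside the 9.

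Of 19 thioredoxin and peroxiredoxin genes, 7 were higher and 12 lower, with a median difference of -0.033. Txn1, the cytosolic thioredoxin that TXNRD1 reduces, had 8.12, 8.28, 8.60 and 8.16 with rCPS1, against 8.45, 7.95, 8.10 and 8.33 with rTF, a difference of 0.082 ± 0.15 (SE). The smallest p-values in this list belonged to the stress-induced Sesn2 (-0.25 ± 0.13, SE), to Sesn3 (-0.23 ± 0.19) and to the mitochondrial reductase Txnrd2 (-0.12 ± 0.12), each with an adjusted p of 0.980 (limma). The thioredoxin list as a whole did not share the order of Txnrd1 and Srxn1: its median r with the 9-gene mean was -0.22, and Prdx4 (r = -0.86) and Sesn1 (r = -0.83) ran against it.

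Regulators of NRF2 were split, with 8 of 13 higher and a median difference of 0.054. Nfe2, a related factor of blood cells, differed by -0.31 ± 0.18 (SE), the small Maf gene Maff by -0.17 ± 0.12 and the kinase gene Gsk3b by 0.12 ± 0.10, and none passed. The Nfe2 row was dim, with means of 2.99 with rCPS1 and 3.30 with rTF, under the median of 3.60 over all array rows. Mafg, a small Maf partner of NRF2, followed the 9-gene mean with r = 0.93, Sqstm1 (p62, which binds KEAP1) with 0.89 and Bach1, the heme-sensing repressor of the same elements, with 0.72. Btrc, a ubiquitin ligase adaptor for NRF2, ran against it (r = -0.83).

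The enzymes that supply NADPH numbered 10 measured, 5 of them higher and 5 lower. H6pd (-0.19 ± 0.15, SE), Idh1 (0.15 ± 0.13) and Me1 (0.25 ± 0.23) had the smallest p-values and did not pass. Pgd and Taldo1 of the pentose phosphate pathway followed the 9-gene mean with r = 0.94 and 0.92. In the list of other NRF2 targets 18 of 24 were higher, with a median difference of 0.062. Cbr3, a carbonyl reductase gene, differed by 0.54 ± 0.29 (SE), Akr1b10 by 0.29 ± 0.20 and Nampt, an enzyme of NAD synthesis, by 0.21 ± 0.14, and none passed. The Cbr3 row was dim, with means of 3.58 with rCPS1 and 3.03 with rTF, under the median of 3.60 over all array rows. The Akr1b10 value rested on rTF replicate 3, whose level was 5.11 beside 5.90 to 5.98 for the rest of that group, and was 0.090 without it. Of the 24, 7 had r over 0.7, against 3.87% of all genes outside the 9, among them the metallothionein genes Mt1 and Mt2 and the superoxide dismutase gene Sod2. Over all 93 genes of the wider lists, 7 had r over 0.9, namely Hmox1, Gss, Abcc1, Pgd, Mafg, Taldo1 and Procr, against 0.271% of all genes outside the 9. These shares describe 8 arrays, and the genes are not independent of each other.

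**Figure D5:**
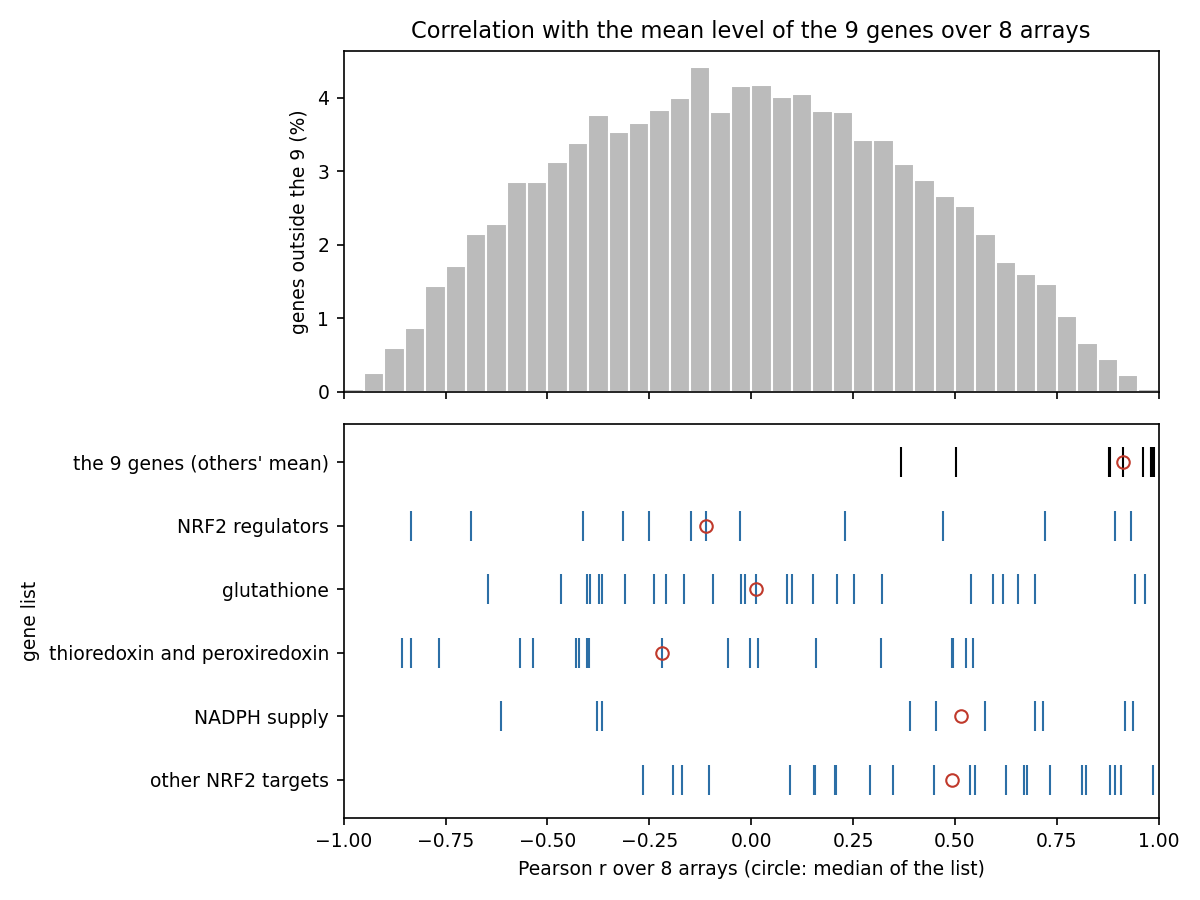
Top: distribution of Pearson's r with the 9-gene mean level over the 8 arrays, as a percentage of the 22171 genes outside the 9. Bottom: r of each gene in a list (tick) and the list's median (circle); the 7 targets lie between 0.88 and 0.99 and Nfe2l2 and Keap1 at 0.37 and 0.50, and the list medians run from -0.22 (thioredoxin and peroxiredoxin) to 0.51 (NADPH supply).

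Markers of other cell types also varied between arrays. The summed level of the 8 sinusoidal endothelial markers, as the log2 of the sum of linear levels, lay between 14.65 and 14.79 with rCPS1 and between 14.63 and 14.80 with rTF. The 8 Kupffer cell markers summed to 12.88 to 13.56 with rCPS1 and 12.80 to 13.34 with rTF. The endothelial mean ran against the 9-gene mean (r = -0.78, and -0.96 without the 2 farthest arrays), over a span of 0.21 log2 units. Its members did not all do so. Lyve1 was 12.19 in rCPS1 replicate 2 and 12.17 in rTF replicate 1, but 11.46 in rCPS1 replicate 4. Kdr went the other way, at 11.08, 11.08 and 11.79 on those arrays. The B cell list (4 of 5 measured) gave r = -0.74, and -0.88 without the 2 farthest arrays. The hepatocyte list gave 0.61 and 0.66 without them, and the Kupffer cell list 0.21 and 0.34. The sign changed for the other lists when the 2 arrays were left out: T and NK cell (8 of 9 measured) from -0.58 to 0.16, neutrophil (8 of 8) from -0.16 to 0.34, monocyte (7 of 8) from -0.054 to 0.31 and stellate cell (7 of 7) from 0.12 to -0.036. The neutrophil mean was 1.21 log2 units lower with rCPS1 and the monocyte mean 0.72 lower, with all members of both lists lower and 0 past the threshold. Of all 22180 genes, 12057 were lower with rCPS1 and 0 passed. The markers within a list are not independent of each other. The summed neutrophil level was 8.77 to 9.85 with rCPS1 and 10.2 to 11.0 with rTF, and the summed monocyte level was 11.0 to 11.3 with rCPS1 and 11.7 to 12.2 with rTF. No marker was at 0, since RMA values have no true zero. The part of any of these cell types in the levels of the NRF2 genes was not tested.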

How the data were processed

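The authors deposited log2 levels for 41345 array rows on 8 arrays. RMA made them, per the submitters' processing notes, where limma also appears and no version is given. Labelled cDNA was made from 400 ng of total RNA, per the labels' protocols. Isolation of the macrophages, the time from acetaminophen to isolation and the array design's genome build are not given in the sources used here. RMA sets arrays to a common scale, so a change common to most genes would not show.

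Of the rows, 23521 carried exactly 1 gene symbol, 1814 several and 16010 none, and those with several or none were left out. The comparison of rCPS1 with rTF used R 4.3.3 and limma 3.58.1 (two-sided, lmFit then eBayes, no covariate, no filter on dim rows), with Benjamini-Hochberg adjustment over 22180 genes at 0.05. The script was tested on simulated data. The number of arrays limits the precision: the median standard error of a log2 difference was 0.15 over all genes and 0.26 over the 9 genes.

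The members and lists were chosen with earlier results of these data known. Genes named are the 9 members, the 3 of smallest p in each wider list, Hmox1, Txn1 and the 6 most like the members' mean, leaving out predicted genes, clones, microRNA, snoRNA and chemosensory receptor genes. Other wider-list genes were named for their r after their values were seen. Promoter sequences are from RefSeq (GRCm38.p6). Alternatives were a filter on dim rows, trended and robust variance, array weights (statmod 1.5.0), quantile normalization again, a replicate block, a gene's rows averaged, all rows tested, and each array left out. Leaving arrays out for Hmox1 and Akr1b10 was added after seeing the data.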

Additional observations from a re-analysis of the deposited data

Results flagged for a closer look

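Akr1b10, an aldo-keto reductase gene of the wider list of NRF2 targets, had a log2 level of 5.11 in rTF replicate 3, far below the 5.90 to 5.98 of the other rTF arrays. It was the only value to stand apart by Dixon's ratio among 82 groups of 4 arrays, where chance would give about 4.1 at 1 in 20. None of the 9 NRF2-pathway genes had such an array.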

How the results depend on the processing

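Under 7 other settings and with each of the 8 arrays left out in turn, 0 of the 9 genes, 0 of the wider-list genes and 0 genes in all passed, and the 9 genes overlapped between groups each time. The median of the 9 differences was 0.11 to 0.25 under the 7 settings, and 0.0036 (without rTF replicate 2) to 0.42 (without rTF replicate 1) with 1 array left out. The number of the 9 with a higher rCPS1 mean ran from 7 to 9 under the settings and from 5 to 8 with 1 array left out. For the wider lists the number higher ran from 46 to 59 under the settings, lowest after quantile normalization, and from 46 to 58 with 1 array left out. Of 135 differences of the 9 genes recomputed in this way, 11 changed sign. Some of the 135 could not change. The dim-row filter, trended and robust variance, the replicate block and testing all rows leave each difference and overlap as they were. These settings alter only the errors and p-values. Among the 9 genes, averaging rows can change only Keap1 and Slc7a11.

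Keap1 turned to 0.10 with the mean of its rows, through the dim row. Slc7a11 turned to 0.12 with array weights and to 0.12 with the mean of its rows. With 1 array left out, Slc7a11 ran from -0.34 to 0.32, Srxn1 from -0.14 to 0.42 and Gsr from -0.027 to 0.25, and the other 6 genes kept their sign. The cause was not tested. With the replicate number as a block the median difference stayed 0.11, as it must when each number is in both groups. The smallest adjusted p over all genes was then 0.995 (limma). Arrays of the same number did not deviate together (correlations of -0.12 to 0.025 over genes), so the levels show no pairing by number. The labels do not say whether samples of the same number were handled together.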
